A study of Rattus norvegicus with 50 samples.

Results

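Collagen chain genes were examined in rat lung across the length of inhalation of printer-emitted particles (PEPs). They were taken as every gene whose symbol in the platform annotation has the form of a collagen chain (Col, a type number, a, a chain number). This gave 31 of 14557 named genes, each with 1 probe set. Male Sprague-Dawley rats, 9 weeks old at purchase, inhaled either the emission of a laser printer (PEP) or air passed through a HEPA filter (Air) for 5 hours a day. Lung RNA was measured on 50 arrays. Each exposure had 5 lungs per time at days 1, 5 and 9, then 6 at day 21. Another 4 per exposure, also of day 21, were from animals with an implant for radio telemetry. Tissue and source are given as lung, although the description field mentions blood, and the samples were taken to be lung. Exposures were repeated in another calendar year without the year being given per sample, so year and group cannot be told apart. Values are log2 intensities made by robust multi-array averaging (RMA), so a difference of 1 is a doubling.

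Collagens are the main protein fibers of the lung. Each molecule is a triple helix of chains, which are modified, folded and trimmed on their way out of the cell and then cross-linked. Fibrillar types form the load-bearing fibers of airway and vessel walls and of the alveolar septa, and type IV forms the sheet beneath epithelium and endothelium. Other types coat fibrils, form beaded filaments or cross the cell membrane. Fibroblasts make most fibrillar collagen, while type IV chains also come from endothelial and epithelial cells.

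The 9 fibrillar members were Col1a1 and Col1a2 (type I, the main fibril collagen), Col3a1 (type III, which shares fibrils with type I), Col5a2 and Col5a3 (type V, which starts fibrils), Col2a1 and Col11a1 (types II and XI, known from cartilage), and Col24a1 and Col27a1. The 7 basement membrane members were Col4a1 and Col4a2 (the widespread type IV trimer), Col4a3, Col4a5 and Col4a6 (chains of the restricted type IV trimers), Col15a1 (type XV, at vessel and muscle basement membranes) and Col7a1 (type VII, the anchoring fibrils of stratified epithelium). The 15 other members were the beaded-filament chains Col6a1, Col6a2 and Col6a6 with Col28a1, the fibril-associated Col9a2, Col9a3, Col14a1, Col16a1, Col19a1 and Col20a1, the membrane-spanning Col13a1, Col17a1, Col23a1 and Col25a1, and the short-chain Col8a1. Col4a4, Col5a1, Col6a3 and 11 other chains were not analysed here. The variance filter of the study (0.05 over all arrays) kept 24 of the 31 members, or 77.4%, against 56.3% of all named genes. It left 7 fibrillar, 4 basement membrane and 13 other chains. Mean log2 values of the members over all arrays ran from 2.46 (Col28a1) to 11.2 (Col3a1). Those of Col2a1, Col5a3, Col7a1, Col8a1, Col9a2, Col9a3, Col11a1, Col17a1, Col19a1, Col24a1, Col25a1 and Col28a1 lay below every array median (4.92 to 5.11). Col11a1, Col24a1, Col4a3, Col4a5, Col7a1, Col9a2 and Col13a1 were below the filter, and their values come from the same model fitted to all 14557 genes.

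Upstream sequences from RefSeq (rat build GRCr8) were found for 24 of the 31 members. A few are shown because the genes concerned are the chain pairs whose RNAs are set side by side below, and because Col1a2 belongs to the fibrillar pair with the largest change. Col4a1 and Col4a2 lie head to head on chromosome 16 and are read in opposite directions from a gap of 76 bases, which is printed whole on the Col4a1 strand (chr16:84885521-84885596). Col4a6 and Col4a5 are also head to head, on chromosome X, with 1263 bases between the annotated genes. The 100 bases next to each are printed in the direction of that gene (Col4a5, chrX:109907151-109907250, plus strand, and Col4a6, chrX:109905988-109906087, minus strand). For Col1a2 on chromosome 4 the 250 bases before the gene are given (chr4:33518307-33518556, plus strand). Capitals mark 3 short motifs, searched on both strands. The CCAAT box reads ATTGG on the other strand. The GC box was searched as GGGCGG, which reads CCGCCC on the other strand. The TATA box was searched as TATAAA, which reads TTTATA on the other strand. The motifs do not overlap in the runs shown.
Col4a2-Col4a1 gap: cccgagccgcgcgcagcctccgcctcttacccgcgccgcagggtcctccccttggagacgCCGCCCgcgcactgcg
Col4a5 upstream: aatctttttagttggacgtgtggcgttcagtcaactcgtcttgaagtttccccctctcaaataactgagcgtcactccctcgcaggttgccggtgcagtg
Col4a6 upstream: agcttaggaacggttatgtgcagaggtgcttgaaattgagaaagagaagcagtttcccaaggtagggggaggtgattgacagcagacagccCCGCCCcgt
Col1a2 upstream: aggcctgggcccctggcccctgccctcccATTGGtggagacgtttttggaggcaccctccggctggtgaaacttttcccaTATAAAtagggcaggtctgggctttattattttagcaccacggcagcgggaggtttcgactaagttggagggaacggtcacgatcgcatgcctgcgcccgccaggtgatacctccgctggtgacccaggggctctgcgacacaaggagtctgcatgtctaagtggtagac
The Col4a1 and Col4a2 gap was 78.9% G and C and held 1 GGGCGG, while the Col1a2 run held 1 CCAAT and 1 TATAAA and was 58.4% G and C. Over the 250 bases before the start site, GGGCGG was present in 15 of the 24 member sequences (62.5%) and in 30.5% of 33469 RefSeq promoters. CCAAT was present in 8 members (33.3%, against 34.0%) and TATAAA in 3 (12.5%, against 12.9%). These matches describe the letters of the window and no binding was measured. Each member was counted with 1 window, while the RefSeq count took every promoter record. The windows of Col4a1 and Col4a2 are longer than the gap between the genes, so they can share bases. A motif there can count for both.

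Many of the collagen RNAs were lower at day 21 than at day 1, in both Air and PEP lungs. In the mean of both exposures, 13 of the 24 tested members passed limma's test (Benjamini-Hochberg adjusted p below 0.05 over 8202 genes), all of them lower at day 21, where 26.2% of all tested genes passed in either direction and 13.8% passed as lower. With all named genes in the model, 15 of the 31 members passed, all lower, against 26.5% of the 14557 genes. Centring each array on its median gave 12 members, all lower, while the share of lower genes among all calls went from 52.7% to 38.7% and the median of all genes from 0.03 to 0.09. The 31 members had a median log2 difference of -0.19, and all named genes a median of 0.00. The medians were -0.28 for the 9 fibrillar, -0.61 for the 7 basement membrane and -0.18 for the 15 other chains. The fibrillar chains Col2a1, Col5a3, Col11a1 and Col24a1, and Col7a1 of the basement membrane, had mean values below every array median. The class medians thus mix dim and bright chains and were not tested against each other.

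Col1a1, the gene of the pair that supplies the larger part of the type I trimer, changed most among the members. In Air lungs of day 1 its log2 values were 10.89, 10.91, 10.62, 10.51 and 10.64. In Air lungs of day 21 they ran from 9.24 through a median of 9.54 to 9.83. All day 21 Air lungs were below all day 1 Air lungs. In PEP lungs the day 1 values were 10.80, 10.76, 9.99, 10.68 and 10.52, and at day 21 they ran from 8.78 through 9.12 to 9.54. These groups did not overlap either, although 1 PEP lung of day 1 (9.99) lay well below the other four. The log2 difference was -1.30 ± 0.11 (SE, 2.46-fold lower, limma adjusted p = 4.59e-13), the 5th smallest p of 8202 genes. It was -1.18 ± 0.15 within Air and -1.43 ± 0.15 within PEP.

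Col3a1 and Col1a2, the other main fibril chains, were lower too, by less than Col1a1. Col3a1 was 11.66, 11.80, 11.65, 11.67 and 11.85 in day 1 Air lungs and 10.86 to 11.28 with a median of 11.09 in day 21 Air lungs. In PEP lungs it was 11.70, 11.69, 11.27, 11.70 and 11.61 at day 1, and 10.80 to 11.27 with a median of 10.93 at day 21. The Air groups were fully apart, and the lowest PEP lung of day 1 and the highest PEP lung of day 21 were equal to 2 decimals. The difference for Col3a1 was -0.64 ± 0.08 (limma adjusted p = 2.44e-08). Col1a2 went from 10.75 ± 0.29 to 10.03 ± 0.11 in Air (SD, n = 5 and 6) and from 10.48 ± 0.30 to 9.95 ± 0.21 in PEP, with a difference of -0.63 ± 0.10 (adjusted p = 2.78e-06). Col5a2, whose gene neighbours Col3a1 on chromosome 9, differed by -0.51 ± 0.07 (adjusted p = 1.08e-07). Of the other fibrillar chains past the filter, Col5a3 was at -0.28 ± 0.14 (adjusted p = 0.15), Col2a1 at -0.07 ± 0.11 and Col27a1 at 0.01 ± 0.10, and none passed. Col11a1 (-0.09 ± 0.08) and Col24a1 (0.02 ± 0.07), fitted without the filter, did not pass either.

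**Figure D1:**
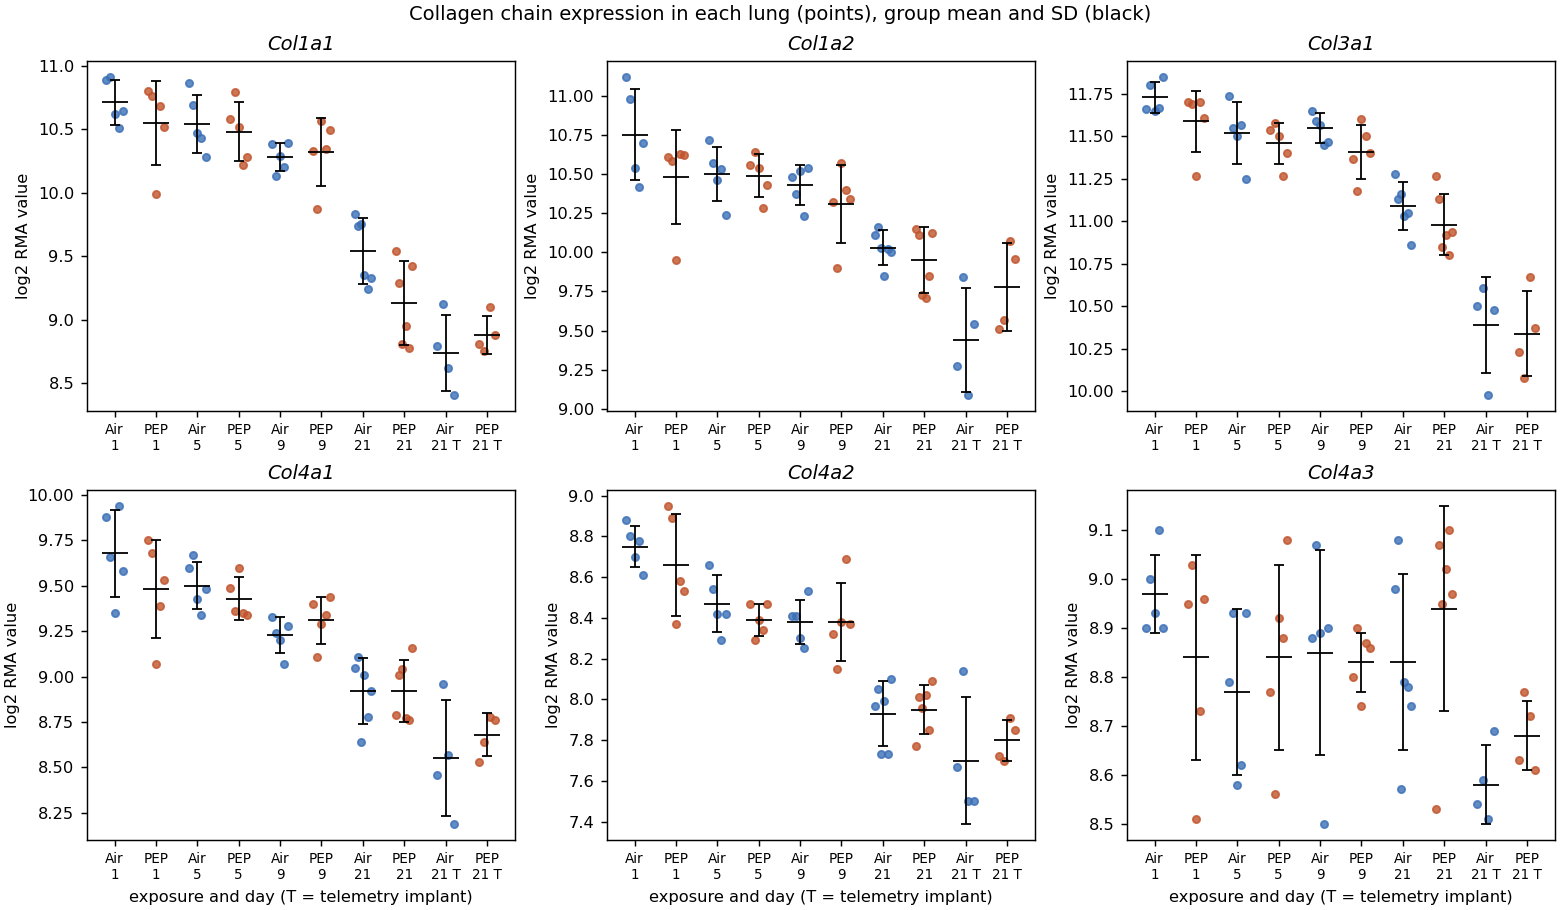
log2 RMA values of 6 collagen chain genes in each lung (points) of the 10 groups, with the group mean and SD in black; T marks rats with a telemetry implant. Col1a1, Col1a2, Col3a1, Col4a1 and Col4a2 are lower at day 21 than at day 1 in both exposures, while the day 1 and day 21 lungs without an implant overlap for Col4a3.

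Of the 7 basement membrane chains 5 were lower in the model without the filter, and Col4a3 and Col7a1 did not pass. Col4a2 was 8.88, 8.80, 8.70, 8.78 and 8.61 in day 1 Air lungs and 7.73 to 8.10, median 7.98, in day 21 Air lungs. In PEP lungs it was 8.95, 8.89, 8.37, 8.58 and 8.53 at day 1 and 7.77 to 8.09, median 7.99, at day 21. Neither pair of groups overlapped. The log2 difference was -0.75 ± 0.08 for Col4a2 (1.68-fold, limma adjusted p = 4.53e-10) and -0.65 ± 0.09 for its partner Col4a1 (adjusted p = 1.13e-07). Col15a1 differed by -0.81 ± 0.10 (adjusted p = 4.42e-08) and Col4a6 by -0.59 ± 0.13 (adjusted p = 0.00049). Col4a5, tested without the filter, differed by -0.44 ± 0.05 (adjusted p = 1.87e-08). Col4a3, the chain of the alveolar and glomerular basement membrane, had a difference of -0.02 ± 0.07 (adjusted p = 0.827). Its means were 8.97 ± 0.08 and 8.84 ± 0.21 in Air and PEP lungs of day 1 and 8.83 ± 0.18 and 8.94 ± 0.21 at day 21. Whether the change of Col4a3 differed from that of Col4a1 was not tested. Col7a1, the chain of anchoring fibrils, was at -0.14 ± 0.08 (adjusted p = 0.19, without the filter).

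Of the other types, the beaded filaments of type VI were lower together. Col6a1 differed by -0.64 ± 0.08 (adjusted p = 5.35e-08), its partner Col6a2 by -0.56 ± 0.08 (adjusted p = 4.13e-07) and Col6a6 by -0.57 ± 0.08 (adjusted p = 3.23e-07). Col6a2 was 10.04, 9.73, 9.45, 9.77 and 9.68 in Air lungs of day 1 and 8.97 to 9.35, median 9.08, in those of day 21. In PEP lungs it was 9.78, 9.66, 9.27, 9.67 and 9.52 at day 1 and 8.94 to 9.16, median 9.07, at day 21, again without overlap in either exposure. Among membrane-spanning chains, Col25a1 (-0.50 ± 0.13, adjusted p = 0.00251), Col23a1 (-0.24 ± 0.09, adjusted p = 0.0438) and, without the filter, Col13a1 (-0.19 ± 0.06, adjusted p = 0.0186) were lower. The call of Col23a1 was lost with equal array weights (adjusted p = 0.0927) and in 13 of 22 fits without a single lung. No fibril-associated chain passed, and Col16a1 had the smallest p of these (-0.16 ± 0.08, adjusted p = 0.13). The highest estimate of any tested member was 0.21 ± 0.11, for Col28a1.

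**Figure D2:**
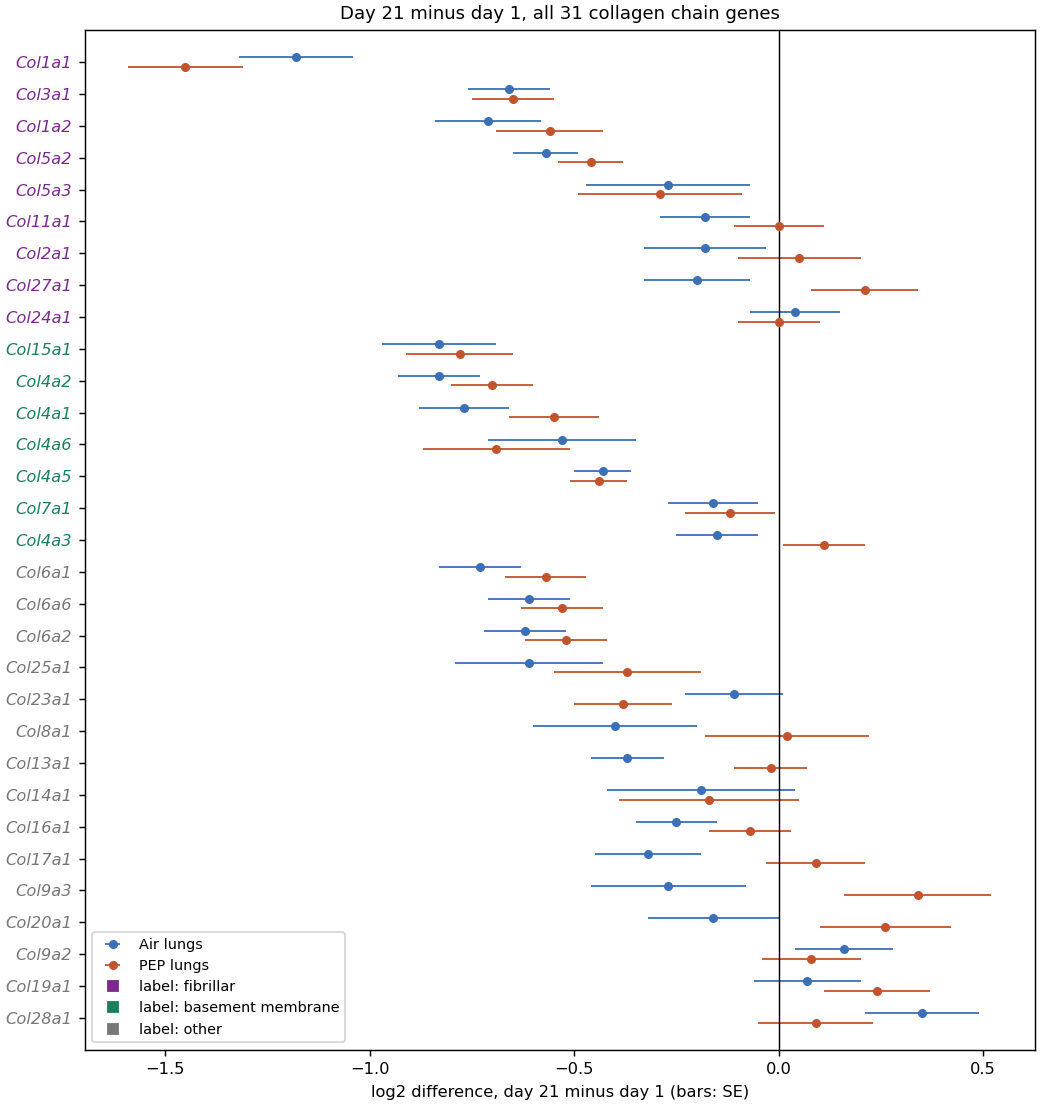
log2 difference between day 21 and day 1 lungs without an implant for all 31 collagen chain genes, with SE, in Air (blue) and PEP (orange), from the model without a variance filter; symbol colors give the class. The Air and PEP points of Col1a1 lie farthest to the left, and the points of Col1a2, Col3a1, Col5a2, Col4a1, Col4a2, Col4a5, Col4a6, Col6a1, Col6a2 and Col6a6 are below 0 in both exposures, while those of Col4a3, Col2a1 and Col27a1 are below 0 in Air and above 0 in PEP.

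The groups also separated lung by lung. All day 21 Air lungs were below all day 1 Air lungs for 12 of the 31 members, where 5.78% of all named genes were so ordered, and no member had the reverse order. In PEP lungs this held for 6 members (Col1a1, Col3a1, Col4a2, Col4a5, Col6a2 and Col15a1), against 3.66% of named genes. Within Air alone 12 of 24 members passed, all lower (21% of all genes passed), namely the 13 without Col23a1. Within PEP 11 of 24 passed, all lower (6.93%), the 13 without Col23a1 and Col25a1. An F test over the 4 days in Air lungs called 12 of 24 members against 18.5% of genes, with Col1a1 (adjusted p = 2.2e-06), Col4a2 (2.33e-05) and Col4a1 (0.000105) leading. The others were Col6a1, Col5a2, Col3a1, Col15a1, Col6a6, Col6a2, Col1a2, Col16a1 and Col25a1, and Col4a3 did not pass in the model without the filter (0.348). Of these 12, Col16a1 (adjusted p = 0.0256) and Col25a1 (0.0316) each lost the call in 4 of 21 fits that left out 1 lung. For Col16a1 these were Air lung 2 of day 9 (adjusted p = 0.0912) and Air lungs 1, 4 and 5 of day 1, and for Col25a1 Air lungs 1, 2 and 5 of day 21 (up to 0.0738) and Air lung 3 of day 1.

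Of the steps between successive days, that from day 9 to day 21 had the most members called. From day 1 to day 5, 3 of 24 members were lower (Col25a1 by -0.43 ± 0.13, Col4a2 by -0.26 ± 0.08 and Col6a1 by -0.26 ± 0.08, limma adjusted p from 0.0304 to 0.0404), against 7.63% of genes called. From day 5 to day 9, 0 of 24 passed, against 0.122% of genes. Col16a1 and Col4a1 had the smallest p of the members there, at ranks 333 and 866 of 8202 genes. Col1a1 was at -0.22 ± 0.11 and Col3a1 at -0.02 ± 0.08 in that step. From day 9 to day 21, 9 of 24 were lower, against 10.7% of genes called. Col1a1 led with -0.96 ± 0.11 (adjusted p = 2.24e-08), followed by Col3a1 (-0.45 ± 0.08), Col6a6 (-0.45 ± 0.08), Col15a1 (-0.58 ± 0.10), Col4a2 (-0.44 ± 0.08), Col6a1 (-0.40 ± 0.08), Col5a2 (-0.28 ± 0.07), Col4a1 (-0.35 ± 0.09) and Col1a2 (-0.37 ± 0.10, adjusted p = 0.011). Other members called over the whole span did not pass in that step, with Col6a2 at -0.22 ± 0.08 (adjusted p = 0.0714), Col4a6 at -0.19 ± 0.13, Col23a1 at -0.20 ± 0.09 and Col25a1 at -0.32 ± 0.13. These steps have unequal lengths and were not tested against each other. In Air lungs the Col1a1 means were 10.71 ± 0.18, 10.54 ± 0.23, 10.28 ± 0.11 and 9.54 ± 0.26 at days 1, 5, 9 and 21, and in PEP lungs 10.55 ± 0.33, 10.48 ± 0.23, 10.32 ± 0.27 and 9.13 ± 0.33.

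Of RNAs of the proteins that make, mature and bind collagen, 15 were lower at day 21 as well, where 13.8% of all tested genes were. Of the 6 cross-linking enzymes tested, 5 were lower, led by Loxl1 (-1.32 ± 0.10, adjusted p = 2.04e-14) and Lox (-1.05 ± 0.11), the copper oxidases that start cross-links, with Loxl2 (-0.71 ± 0.11), Loxl3 (-0.45 ± 0.10) and the type IV cross-linker Pxdn (-0.49 ± 0.11). Of 4 folding and export genes, 3 were lower: Creb3l1, a transcription factor that switches on collagen secretion (-1.21 ± 0.11, adjusted p = 1.25e-11), its relative Creb3l2 (-0.49 ± 0.09) and the collagen chaperone Serpinh1 (-0.34 ± 0.07). Of 4 prolyl and lysyl modification genes, P3h4 (-0.42 ± 0.10), Plod2 (-0.29 ± 0.09) and P4ha3 (-0.41 ± 0.14) were lower, and of 4 propeptide processing genes, Pcolce (-0.44 ± 0.08) and Adamts14 (-0.36 ± 0.08). The collagen receptors Itga11 (-0.67 ± 0.12) and Mrc2 (-0.41 ± 0.08) were lower among 4 tested. With scores of cardiac and ciliated cell markers as covariates, 8 of these 15 genes passed. The share of all tested genes that passed went from 26.2% to 10.1% in that model. Loxl3 (adjusted p = 0.153), Pxdn (0.123), Serpinh1 (0.0777), Plod2 (0.4), P4ha3 (0.81), Adamts14 (0.053) and Mrc2 (0.0872) did not.

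RNAs of matrix proteins that sit on or beside collagen changed in the same direction, where 13.8% of all tested genes were called as lower. Of 13 fibril-associated matrix genes, 11 were lower, among them Fndc1 (-0.86 ± 0.13), Lum (-0.80 ± 0.12), Prelp (-0.71 ± 0.09), Fn1 (-0.63 ± 0.11), Thbs2 (-0.62 ± 0.11), Bgn (-0.58 ± 0.09), Postn (-0.50 ± 0.07), Fmod (-0.50 ± 0.14), Sparc (-0.43 ± 0.06), Dpt (-0.38 ± 0.08) and Ogn (-0.34 ± 0.08). Of 6 partners of type IV in the basement membrane, 5 were lower: Nid2 (-0.58 ± 0.11), Lamb1 (-0.53 ± 0.09), Lamc3 (-0.44 ± 0.15), Lamc1 (-0.37 ± 0.08) and Lama2 (-0.30 ± 0.07). With the marker scores as covariates, where 10.1% of all tested genes passed, Lamb1 alone of these 5 did (the others had an adjusted p from 0.0752 to 0.163). Of the 11 fibril-associated genes 9 passed in that model (not Fmod, 0.169, or Ogn, 0.0658). Of 2 genes tested from the TGF-beta list, Ltbp2 was lower (-0.51 ± 0.09) and Ccn2, a TGF-beta response gene, was higher (0.43 ± 0.14).

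Markers of several cell types moved with these RNAs, and in whole lung fewer cells of a type and less RNA per cell cannot be told apart. Of 7 fibroblast markers tested, 5 were lower, namely the growth factor receptors Pdgfrb (-0.78 ± 0.08) and Pdgfra (-0.49 ± 0.09), Mfap5 (-0.70 ± 0.08), and Lum and Dpt, which the fibril-associated list also holds. Of 3 myofibroblast markers Hhip (-0.39 ± 0.09) and Lgr6 (-0.41 ± 0.11) were lower, as were Cdh5 (-0.34 ± 0.08) and Emcn (-0.24 ± 0.08), both endothelial markers tested, 2 of 4 macrophage markers (Adgre1, -0.38 ± 0.11, and Marco, -0.65 ± 0.24) and 2 of 6 T cell markers (Cd4, -0.60 ± 0.13, and Cd8a, -0.38 ± 0.12). No smooth muscle (3), mesothelial (5), cartilage (8), adipocyte (5), Schwann cell (2), hepatocyte (4) or alveolar type 2 (1) marker tested passed, and none of the 6 named alveolar type 1 markers was above the variance filter. All 6 cardiac muscle markers (median 2.06) and all 4 ciliated cell markers (median 0.88) were higher at day 21. The mean standardized level of the cardiac markers ran from -1.06 to 0.75 in day 1 lungs and from -0.98 to 1.73 in day 21 lungs without an implant. With both marker scores as covariates, 12 members passed as lower, against 10.1% of all genes, and Col1a1 differed by -1.19 ± 0.13 (adjusted p = 4.65e-09). In that model Pdgfra (adjusted p = 0.0542), Hhip (0.0978), Cdh5 (0.0968), Emcn (0.249), Adgre1 (0.216), Marco (0.218) and Cd8a (0.37) no longer passed, and Emcn did not pass with centred arrays either (0.0562). The part of the fibroblast and other markers in the collagen values was not tested.

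Rats with a telemetry implant were compared with rats of day 21 without one, and 7 of 24 members were lower, against 14.4% of genes called and 5.1% called as lower. The day 21 lungs without an implant are the same as in the comparison over time. In the model of all named genes 8 of 31 passed as lower, against 16.5% of genes called. Without PEP lung 1 of the implanted group 4 members passed. With each array centred on its median 11 did, all lower, and the share of lower genes among all calls went from 35.5% to 65.1% as the median of all genes moved from -0.02 to -0.11. The medians over all 31 members were -0.21 for fibrillar, -0.24 for basement membrane and 0.02 for other chains, and -0.01 for all genes.

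Type III collagen stood first among the members. Col3a1 was 10.50, 10.61, 9.98 and 10.48 in implanted Air lungs and 10.23, 10.08, 10.67 and 10.37 in implanted PEP lungs. All were below every lung of the same exposure without an implant, where the lowest were 10.86 in Air and 10.80 in PEP. The log2 difference was -0.66 ± 0.09 (1.58-fold, limma adjusted p = 5.55e-07). Col1a1 was 8.79, 9.12, 8.62 and 8.41 in implanted Air lungs, below all Air lungs without an implant, and 8.81, 8.75, 9.10 and 8.88 in implanted PEP lungs, which overlapped with those without. Its difference was -0.52 ± 0.12 (adjusted p = 0.00178) in the mean of both, -0.80 ± 0.17 within Air and -0.24 ± 0.17 within PEP, and the test of that difference did not pass (0.56 ± 0.24, adjusted p = 0.699).

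Col5a2 (-0.29 ± 0.08, adjusted p = 0.00488), Col1a2 (-0.37 ± 0.11, adjusted p = 0.0144) and the fibril-associated Col16a1 (-0.36 ± 0.09, adjusted p = 0.00285) were also lower, as were Col4a1 (-0.31 ± 0.10, adjusted p = 0.021) and Col15a1 (-0.35 ± 0.11, adjusted p = 0.0292). Col16a1 was 6.04, 6.03, 5.94 and 6.10 in implanted Air lungs, all below the lowest Air lung without an implant (6.13). The calls of Col1a2, Col4a1 and Col15a1 were lost without single lungs, with an adjusted p up to 0.0616 for Col1a2 without PEP lung 2, 0.112 for Col4a1 without Air lung 4 and 0.0992 for Col15a1 without PEP lung 2 of the implanted groups. Col1a2 and Col4a1 were also lost without PEP lung 1 of that group (0.0503 and 0.0525). Col15a1 was further lost without PEP lung 1 (0.0784), Air lung 3 (0.0728) or Air lung 4 (0.0703) of the implanted groups or PEP lung 3 of those without an implant (0.0527). Col4a2 differed by -0.19 ± 0.09 and did not pass (adjusted p = 0.156), but passed without Air lung 2 of the implanted group (0.0253). Col4a3, which had no called change over time, was lower by this comparison in the model of all named genes (-0.25 ± 0.08, adjusted p = 0.0215). Its values were 8.54, 8.59, 8.51 and 8.69 in implanted Air lungs and 8.63, 8.77, 8.72 and 8.61 in implanted PEP lungs, within or just below the range without an implant (8.53 to 9.10). Type VI chains did not pass (Col6a1 -0.11 ± 0.09, Col6a2 -0.20 ± 0.09). Within Air 4 members passed (Col3a1, Col1a1, Col1a2 and Col16a1, against 6.91% of genes called), and within PEP Col3a1 alone (-0.64 ± 0.12, against 3.8%). All implanted Air lungs were below all day 21 Air lungs without an implant for 6 of the 31 members, against 2.84% of named genes, and in PEP for 1, against 2.73%.

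**Figure D3:**
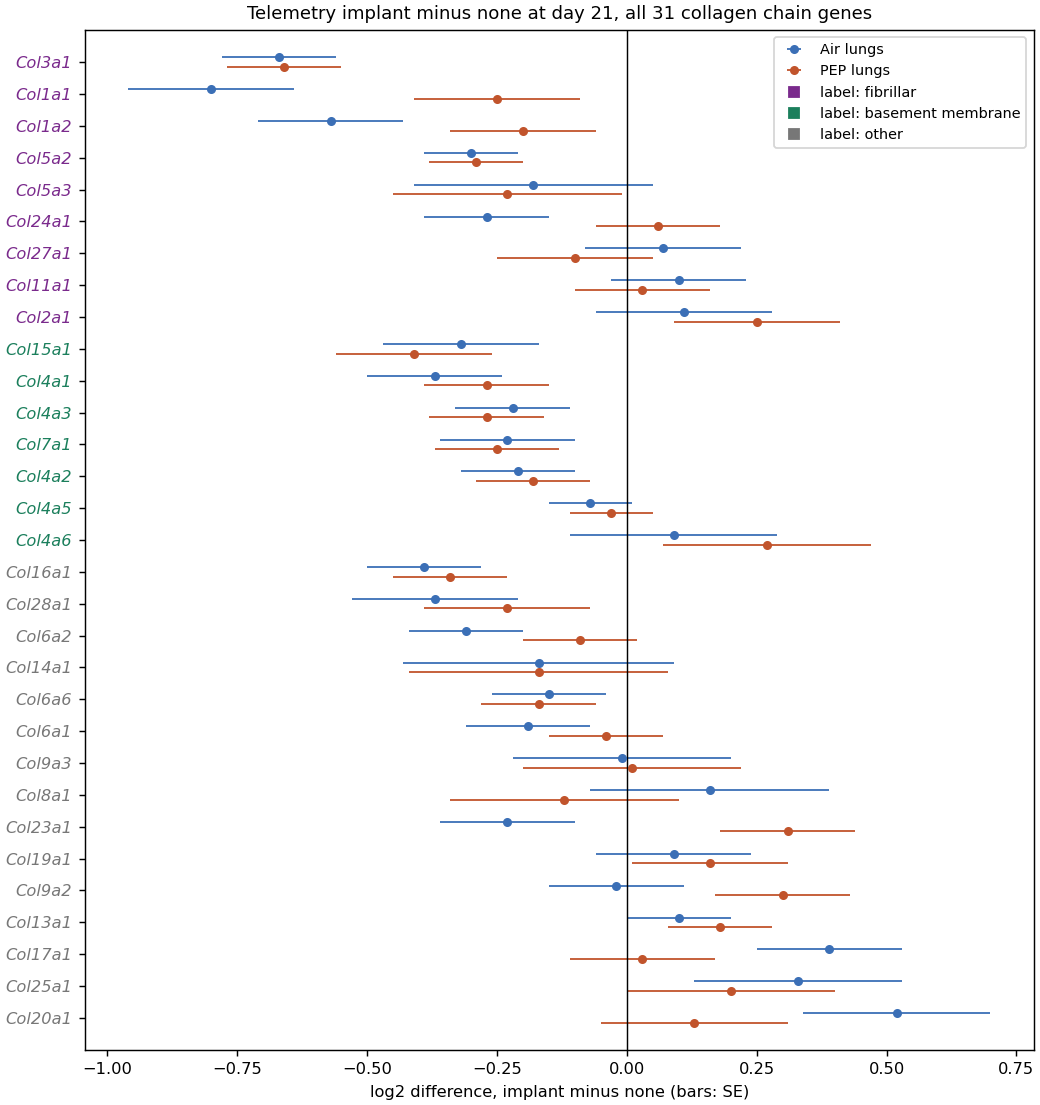
log2 difference between day 21 lungs of rats with and without a telemetry implant for all 31 collagen chain genes, with SE, in Air (blue) and PEP (orange), from the model without a variance filter; symbol colors give the class. Col3a1 lies farthest to the left in PEP lungs and Col1a1 in Air lungs, while several other chains lie to the right of 0.

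Genes of the other lists moved in both directions here. Of 7 fibroblast markers 3 were higher in implanted rats, Pdgfra (0.52 ± 0.10), Pdgfrb (0.46 ± 0.09) and Dpt (0.39 ± 0.09), and none was lower. Of the 13 fibril-associated genes 5 were higher, namely Fmod (0.74 ± 0.16), Prelp (0.45 ± 0.10), Dpt, Bgn (0.39 ± 0.10) and Fn1 (0.37 ± 0.12), and Sparc was lower (-0.19 ± 0.06). Creb3l1 was higher (0.57 ± 0.12) and the chaperone Serpinh1 lower (-0.26 ± 0.08) among folding and export genes. P4ha3 was higher (0.48 ± 0.15) and Plod2 lower (-0.47 ± 0.10) among modification enzymes. Loxl1 (0.35 ± 0.11) and the collagen uptake receptor Mrc2 (0.31 ± 0.09) were higher, Ltbp2 was lower (-0.40 ± 0.10), and 0 of 4 propeptide processing genes and 0 of 6 basement membrane partners passed. With arrays centred on the median, Fn1, Loxl1, Mrc2, P4ha3, Des and Lmod1 kept their sign but did not pass (adjusted p from 0.0579 to 0.0857). Of 6 T cell markers 5 were higher, Cd4 (0.80 ± 0.15), Cd8a (0.75 ± 0.13), Cd3e (0.64 ± 0.13), Cd247 (0.59 ± 0.11) and Cd3g (0.51 ± 0.15). The macrophage markers Adgre1 (0.67 ± 0.13) and Cd68 (0.42 ± 0.12), the smooth muscle markers Des (0.33 ± 0.11) and Lmod1 (0.37 ± 0.11), Lrrn4 of mesothelium (0.82 ± 0.27), Chad of cartilage (0.85 ± 0.20) and Fabp4 of adipocytes (1.00 ± 0.23) were higher, and endothelial Emcn was lower (-0.53 ± 0.09). Their part in the collagen values was not tested. No cardiac, ciliated, myofibroblast, Schwann cell, hepatocyte or alveolar type 2 marker passed.

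PEPs were then compared with Air at each time. At day 1, 5, 9 and 21 of PEPs exposure and in implanted rats, 0 of 24 members passed limma's test, where 0, 0, 0, 0.219% and 0.0122% of all tested genes did. At an unadjusted p below 0.05 there were 3, 0, 0, 3 and 0 members, or 12.5% at days 1 and 21, against 6.55%, 5.38%, 5.15%, 14.3% and 5.58% of all genes. In the model of all named genes, 0 of the 31 members passed in any of these comparisons. The mean effect over the 4 days had 0 members called, against 0.0244% of genes, and 4 at an unadjusted p below 0.05 (9.56% of genes), namely Col4a6 (-0.26 ± 0.09, adjusted p = 0.302), Col3a1 (-0.13 ± 0.06, adjusted p = 0.479), Col6a6 (-0.12 ± 0.06) and Col1a1 (-0.16 ± 0.08, adjusted p = 0.493). Col1a2 was at -0.12 ± 0.07, Col4a1 at -0.04 ± 0.06, Col4a2 at -0.03 ± 0.06 and Col4a3 at 0.04 ± 0.05. The F test for a PEPs effect that changes with the day called 0 members and 0 of all genes. Col9a3 had the smallest p of the members in it, at rank 607 of 8202 genes.

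At day 1 of PEPs exposure most members had a negative estimate, 28 of 31, with a median of -0.13 where all named genes had 0.00. Col9a3 (-0.49 ± 0.18, adjusted p = 0.599), Col16a1 (-0.28 ± 0.11, adjusted p = 0.646) and Col28a1 (0.33 ± 0.15, adjusted p = 0.71) had the smallest p. Of these, Col9a3 and Col28a1 were dim, with mean log2 values of 3.81 and 2.46 over all arrays. Col16a1 was 6.82, 6.57, 6.54, 6.72 and 6.71 in Air and 6.41, 6.40, 6.38, 6.35 and 6.41 in PEP lungs, groups that did not overlap. The same order was seen for Col13a1 alone among the other members, or 2 of 31, against 0.501% of named genes. The main chains were closer, with Col1a1 at -0.16 ± 0.15, Col1a2 at -0.25 ± 0.13, Col3a1 at -0.14 ± 0.11, Col4a1 at -0.20 ± 0.12, Col4a2 at -0.11 ± 0.11 and Col4a3 at -0.11 ± 0.09. PEP lung 3 was the lowest of its group for each of these 6 genes. Without it the median of the 24 tested members was -0.09 rather than -0.15, with 19 rather than 21 negative, while 48.3% of all tested genes were negative with all lungs.

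At days 5 and 9 the estimates were small. At day 5 they lay between -0.34 ± 0.19 (Col4a6, adjusted p = 0.89) and 0.23 among the 24, with Col23a1 at 0.20 ± 0.13, Col27a1 at -0.20 ± 0.15, Col1a1 at -0.11 ± 0.16, Col1a2 at -0.05 ± 0.14, Col3a1 at -0.10 ± 0.11, Col4a1 at -0.07 ± 0.13, Col4a2 at -0.06 ± 0.12 and Col4a3 at 0.11 ± 0.10. At day 9 Col2a1 (0.31 ± 0.16), Col6a6 (-0.17 ± 0.12) and Col3a1 (-0.14 ± 0.12, adjusted p = 0.993) had the smallest p. Col1a1 was then at 0.04 ± 0.16, Col1a2 at -0.11 ± 0.14, Col4a1 at 0.09 ± 0.13, Col4a2 at 0.00 ± 0.12 and Col4a3 at 0.00 ± 0.10. The SE of the main chains, between 0.10 and 0.16, sets how small a difference these groups could show.

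At day 21 of PEPs exposure Col1a1 had the lowest p of the members. Its values ran from 9.24 through 9.54 to 9.83 in Air and from 8.78 through 9.12 to 9.54 in PEP lungs, so that the groups overlapped. The difference of -0.42 ± 0.15 did not pass (limma adjusted p = 0.202). Col20a1 (0.41 ± 0.17, adjusted p = 0.246) and Col23a1 (-0.30 ± 0.13, adjusted p = 0.271) came next. Col1a2 (-0.09 ± 0.14), Col3a1 (-0.12 ± 0.11), Col4a1 (0.03 ± 0.12), Col4a2 (0.04 ± 0.11) and Col4a3 (0.15 ± 0.10) differed by less than 2 SE. In implanted rats Col1a2 (0.30 ± 0.17, adjusted p = 0.945), Col19a1 (0.26 ± 0.17) and Col23a1 (0.22 ± 0.15) led, and Col1a1 (0.14 ± 0.18), Col3a1 (-0.10 ± 0.13), Col4a1 (0.13 ± 0.15), Col4a2 (0.08 ± 0.13) and Col4a3 (0.10 ± 0.12) were near 0. The PEPs effect in implanted and other rats of day 21 differed for 0 members and 0 of all genes. Col23a1 (a difference of 0.53 ± 0.20) and Col1a1 had the smallest p of the members, at ranks 135 and 275 of 8202 genes. For Col1a2 that difference was 0.39 ± 0.22, for Col3a1 0.03 ± 0.17, for Col4a1 0.10 ± 0.19, for Col4a2 0.03 ± 0.18 and for Col4a3 -0.05 ± 0.15.

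**Figure D4:**
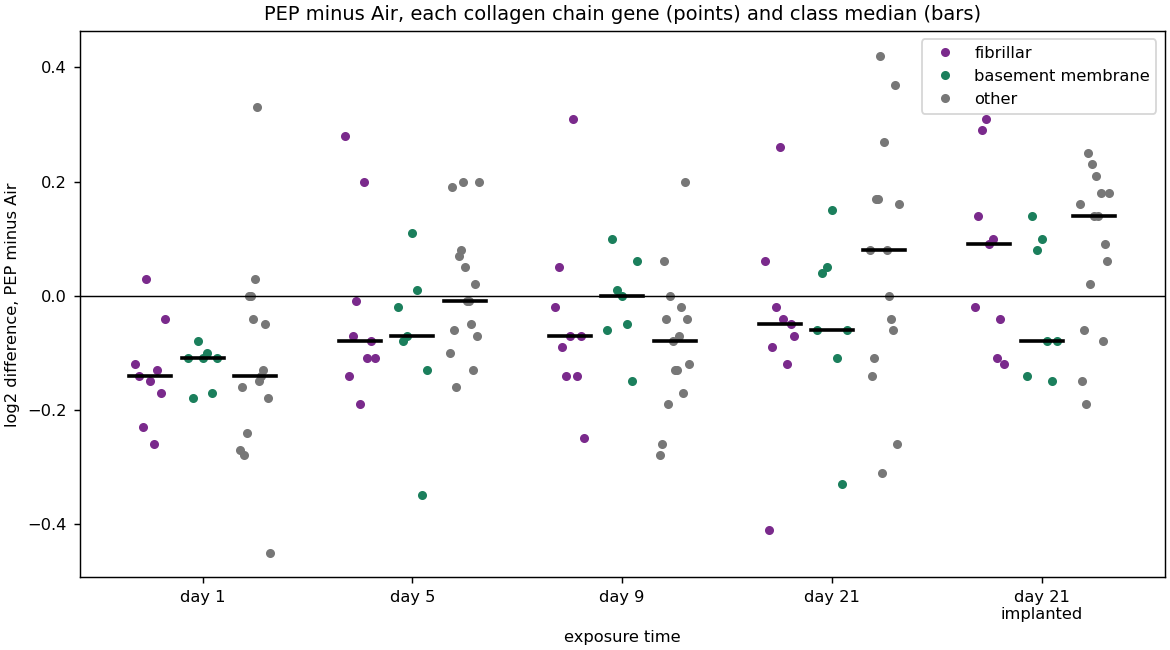
log2 difference between PEP and Air lungs for each of the 31 collagen chain genes (points) by class in 5 comparisons, with the class median as a black bar, from the model without a variance filter. No point passed the test. At day 1, 28 of 31 points are below 0, where 7219 of all 14557 named genes are.

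Several pairs of chains that join in a trimer were correlated from lung to lung. After the mean of its group was subtracted from each of the 50 lungs, Col1a1 and Col1a2 had a Pearson r of 0.79 and a Spearman rho of 0.80. The head-to-head partners Col4a1 and Col4a2 had an r of 0.75 (rho 0.72), Col6a1 and Col6a2 an r of 0.73 (rho 0.67) and Col4a5 and Col4a6 an r of 0.52 (rho 0.46). Types I and III (Col1a1 and Col3a1) had an r of 0.74 (rho 0.74). Of 2 pairs from different trimers, Col1a1 and Col4a1 had an r of 0.54 (rho 0.50), and Col4a1 and Col4a3 an r of 0.43 (rho 0.38). All 7 pairs passed a two-sided permutation test, with Benjamini-Hochberg adjusted p over the 7 from 1.75e-05 to 0.00197 for r and from 1.75e-05 to 0.0075 for rho, 1e-05 being the smallest unadjusted p that 100000 resamples can give. The shuffling ran over all 50 lungs regardless of group and did not account for the group means removed. These p-values are therefore approximate and may be too small. Without the 2 lungs farthest from the median of the first gene the r values were 0.74 (Col1a1 and Col1a2), 0.68 (Col4a1 and Col4a2), 0.68 (Col6a1 and Col6a2), 0.47 (Col4a5 and Col4a6), 0.69 (Col1a1 and Col3a1), 0.45 (Col1a1 and Col4a1) and 0.38 (Col4a1 and Col4a3). Whether partners correlated more than other pairs was not tested, and Col4a2 and Col6a1, which are not partners, had an r of 0.72. Other pairs of 1 collagen type ran from -0.10 for Col4a3 and Col4a6 to 0.54 for Col4a2 and Col4a5, described without a test. Some had an r near 0, with 0.08 for Col4a3 and Col4a5, 0.08 for Col5a2 and Col5a3 and -0.06 for Col9a2 and Col9a3. Chains of these pairs can also share a trimer, so an r well above 0 was not seen for all trimer partners. Others were higher, such as 0.49 for Col4a1 and Col4a5 and 0.39 for Col6a1 and Col6a6. Over all 465 pairs of members the median r was 0.08. The points share the arrays, so differences in cell makeup or RNA between lungs enter both genes of a pair.

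**Figure D5:**
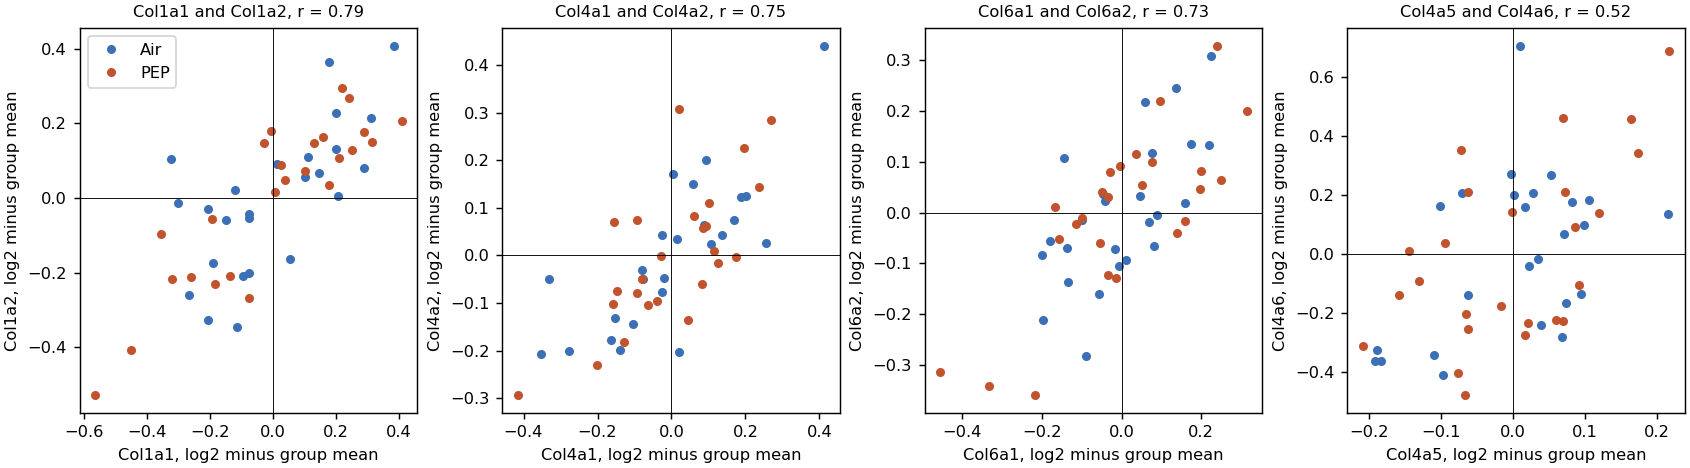
Values of 2 collagen chains of a trimer in each of 50 lungs (points, Air blue and PEP orange), as log2 value minus the mean of the group, for Col1a1 and Col1a2, Col4a1 and Col4a2, Col6a1 and Col6a2, and Col4a5 and Col4a6. The points lie close to a rising line in the first 3 panels (r from 0.73 to 0.79) and scatter more widely in the last (r = 0.52).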

How the data were processed

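For 50 lung arrays the deposited log2 values covered 36685 probe sets. Per the submitters' processing notes, they were made by RMA (background correction, quantile normalization and probe summary) with oligo in R 3.4, and limma was used. Quantile normalization removes a shift common to most genes and compresses dim signals. Arrays carry no read depth, and the number of arrays limits the precision. Array medians lay between 4.92 and 5.11. Whether arrays are from separate rats is not stated, and p-values then reflect only the variation among these arrays. The annotation gave 1 gene to 14824 probe sets, more to 829 and none to 21032, and 14670 of the 14824 matched a RefSeq gene record. Of several sets the brightest was used. The table held 0 columns of no sample.

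One linear model over the 10 groups was fitted with limma 3.58.1 in R 4.3.3, with gene-by-gene array weights (0.59 to 1.71), empirical Bayes moderation and two-sided tests, after a variance filter of 0.05 (8202 genes). P-values were adjusted by Benjamini and Hochberg within each comparison. Group values are mean ± SD and model values are log2 difference ± SE. The code was tested on simulated data. Named in each planned comparison that gives a difference were Col1a1, Col1a2, Col3a1, Col4a1, Col4a2 and Col4a3, the 3 members with the smallest p and every called member, in the others the called members, and from the other gene lists every called gene (the rule also allowed uncalled genes with the smallest p, which are left out). Members and lists were chosen with earlier results of these data known. Alternatives were equal weights, no filter, robust moderation, a replicate block, centred arrays, mean probe sets, only the compared groups, type IV alone as the basement membrane class, and each lung left out. Marker scores as covariates, the steps between successive days and the comparisons within Air or PEP lungs alone were added after seeing the data. The comparisons added then were not rerun under the alternatives.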

Additional observations from a re-analysis of the deposited data

Results flagged for a closer look

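Single lungs stood far from the rest of their group for 9 of 160 sets of values examined (16 members in 10 groups), by Dixon's test of the gap, where chance gives about 1 in 20. PEP lung 3 of day 1 was low for 3 fibrillar chains, at 9.95 for Col1a2 (nearest 10.58), 11.27 for Col3a1 (nearest 11.61) and 8.73 for Col5a2 (nearest 9.08). At day 21 without an implant, PEP lung 1 was low for Col4a3 at 8.53 (nearest 8.95), PEP lung 4 for Col5a2 at 8.31 (nearest 8.60) and Air lung 3 for Col16a1 at 6.13 (nearest 6.42). In implanted rats PEP lung 3 was high for Col15a1 at 7.21 (nearest 6.61) and Air lung 4 low for Col23a1 at 5.89 (nearest 6.25). Air lung 1 of day 9 was high for Col23a1 at 6.71 (nearest 6.41).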

How the results depend on the processing

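Between day 21 and day 1, 12 to 15 members were called under every alternative, 12 to 13 when 1 lung was left out. Air lungs across days gave 11 to 14 members, and 11 to 12 without 1 lung. The comparison of implanted rats gave 6 to 11 members under the other settings, with 11 when arrays were centred on their median, and 4 to 9 without 1 lung. With the marker scores 7 members were lower and Col20a1 was higher in implanted rats (0.35 ± 0.12, adjusted p = 0.0443). PEPs against Air gave 0 members under every alternative. Same-numbered Air and PEP lungs had correlations of their deviations from -0.36 to 0.29, over 0.1 in 4 of 25 pairs. All 4 were among the 6 pairs of day 21 without an implant (0.05 to 0.29), and the pairs of day 1 were all above 0 too (0.02 to 0.08). In no group were all pairs over 0.1, and the numbers were not taken as pairing. This check cannot tell whether lungs were paired at single days. With the replicate block 12 members were called between days 21 and 1, 7 in implanted rats and 12 across days in Air. The block moved the count over all genes from 0 to 3 at day 1 and from 18 to 25 at day 21 of PEPs, and ended the call of Col23a1 over time (adjusted p = 0.0671) and of Col15a1 in implanted rats (0.0564).

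Estimates of uncalled members near 0 changed sign. An estimate that rounds to 0.00 was given no direction, a choice made after the values were seen. Without 1 lung, PEP minus Air ran from -0.08 to 0.01 for Col1a2 at day 5 and from -0.02 to 0.15 for Col1a1 at day 9. At day 21 it ran from -0.03 to 0.08 for Col4a1 and from -0.01 to 0.08 for Col4a2, and was -0.07 and -0.09 with the cardiac and ciliated marker scores as covariates. In implanted rats it ran from -0.02 to 0.31 (Col1a1), -0.22 to 0.02 (Col3a1), -0.03 to 0.30 (Col4a1) and -0.05 to 0.25 (Col4a2). The implant difference of the PEPs effect ran from -0.10 to 0.14 (Col3a1, -0.01 with the replicate block), -0.06 to 0.27 (Col4a1) and -0.10 to 0.21 (Col4a2). The cause was not tested.

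Counts over all genes moved further. Without the variance filter, which tests more genes, they went from 2145 to 3855 over time, from 1178 to 2395 in implanted rats, from 1516 to 2564 across days in Air, from 18 to 45 at day 21 of PEPs and from 2 to 33 for the mean PEPs effect. With the marker scores they were 831 over time and 5 at day 21 of PEPs, which gave 37 with equal weights and 0 with only its own groups. The tested pair correlations passed under all alternatives. With group means removed, r ran from 0.38 (Col4a1 and Col4a3, of different trimers) to 0.79 (Col1a1 and Col1a2). Plain values that kept the group means gave r up to 0.94 (Col4a1 and Col4a2), and 0.91 for Col1a1 and Col4a1, which are not partners. With 4 to 6 arrays a group, differences of 1 SE of these fits cannot be told from 0.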
